A study of Mus musculus with 8 samples.

Results

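The 9 genes Lin9, Lin37, Lin52, Lin54, Mybl2, Foxm1, Rbl1, Rbl2 and E2f4 encode the MuvB core, the activators that join it, and the pocket proteins and E2F factor that turn it into a repressor. They were taken by name, through their Ensembl identifiers, from the 19058 genes in the deposited table of normalized abundance, and each of the 9 had 1 entry with a value in every library. Polyadenylated RNA had been sequenced from mouse embryos collected as late morulae 78 h after fertilization. Zygotes had received small interfering RNA (siRNA) against Rbbp4 (the Rbbp4 knockdown), against Rbbp7 (the Rbbp7 knockdown), against both (the double knockdown) or a non-specific siRNA (the control), with 2 libraries in each of the 4 groups. The labels give neither the strain nor the number of embryos in a library. Nor do they say whether replicate libraries were made from different embryos, so the p-values cover the spread between these libraries alone, which may be technical.

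MuvB is a small complex of LIN9, LIN37, LIN52 and LIN54 with the histone-binding protein RBBP4, 1 of the proteins whose transcript was targeted here. Joined by a pocket protein, p107 (Rbl1) or p130 (Rbl2), and by E2F4 with its DP partner, it forms the DREAM complex, which holds cell cycle genes off in resting and early G1 cells. In dividing cells the pocket protein leaves, B-MYB (Mybl2) and later FOXM1 bind in its place, and the complex activates genes of G2 and mitosis through a promoter element called CHR, which LIN54 contacts. Mouse embryos that lack B-MYB or LIN9 are known to fail around implantation, shortly after the stage sampled here.

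The siRNA targets and the libraries were checked first. Rbbp4 fell to 7.44% of the control level with its own siRNA and 7.80% with both, and Rbbp7 to 3.79% with its own and 3.80% with both (limma, adjusted p at most 1.04e-05). The gene not targeted was not called. Rbbp7 stood at 83.3% of the control in the Rbbp4 knockdown (limma, adjusted p = 0.858). Rbbp4 stood at 88.3% in the Rbbp7 knockdown (limma, adjusted p = 0.7375). In each case both libraries lay below both control libraries, as for 17.4% and 19.7% of all tested genes. Library totals of normalized abundance ranged from 11334107 to 12011829. Control replicate 1 stood apart, with 3937 genes at 0 where the other 7 had 2644 to 3237, and with 6.21% of its signal from mitochondrial genes where they had 4.26% to 5.53%. The 12 markers of late morula and blastocyst lineages were present at a mean of at least 10. Their sum was 54522 and 53455 with Rbbp4 knocked down, 53870 and 55389 with Rbbp7 knocked down and 46368 and 44687 with both knocked down, against 52872 and 61007 in the control. Krt18, an early trophectoderm keratin, had 1545 and 1959 in the double knockdown, against 3300 and 4116 in the control. It was lower still in the Rbbp7 knockdown, at 1174 and 1421. The pluripotency gene Nanog had 4192 and 4692 in the double knockdown, against 6698 and 6322 in the control. In the Rbbp7 knockdown Nanog was higher, at 9093 and 10156. The 12 markers did not move together. Pou5f1 had 15910 and 13735 in the double knockdown, against 13210 and 16243 in the control. Of other cell types, the blood list summed to 8.88 to 26.8 per library, the sperm list to 0 to 4.92, the fibroblast list to 1.57 to 9.03 and the oviduct list to 5.19 to 33.8. The list for cumulus and granulosa cells, with 6 of its 10 genes in the table, was carried by Nr5a2, which the embryo also expresses. Foxl2, a defining gene of granulosa cells, stood at 101 and 74.4 in the double knockdown, against 29.3 and 12.0 in the control. The other genes of that list did not all follow it. In the double knockdown Amh had 4.22 and 1.24, against 0 and 4.0 in the control, and Fst 0 and 1.24, against 0 and 1.0. Inhba had 9.50 and 4.97, against 2.55 and 4.01, and Amhr2 145 and 87.1, against 67.8 and 91.3. The part of these markers in the results below was not tested.

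Promoter sequences show where the letters of known elements of these complexes lie in some of the genes. The stretches are the 150 bases before the RefSeq start of each gene, on build GRCm38.p6, written in the direction of transcription. Capitals mark the letters TTTGAA or TTCGAA (the CHR element), GGCGGGA (an E2F element) and CCAAT (the box bound by NF-Y), on either strand. Apart from the targeted Rbbp4, Lin37 is the core gene with the lowest values in the double knockdown relative to the control. It is shown for this reason, and Mybl2 as the gene of the activator. Ncapd2, a condensin subunit, is shown as a target gene that fell in the double knockdown, and Cdk1, the mitotic kinase, as a target whose stretch holds the CHR letters at 2 places.
Lin37 (chr7:30559647-30559796, minus strand): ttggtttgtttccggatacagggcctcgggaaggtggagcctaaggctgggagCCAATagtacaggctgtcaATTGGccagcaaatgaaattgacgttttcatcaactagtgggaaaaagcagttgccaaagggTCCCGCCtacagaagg
Mybl2 (chr2:163054485-163054634, plus strand): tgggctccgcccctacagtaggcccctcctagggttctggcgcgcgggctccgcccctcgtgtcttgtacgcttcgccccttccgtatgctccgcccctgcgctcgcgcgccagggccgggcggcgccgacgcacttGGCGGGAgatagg
Cdk1 (chr10:69352913-69353062, minus strand): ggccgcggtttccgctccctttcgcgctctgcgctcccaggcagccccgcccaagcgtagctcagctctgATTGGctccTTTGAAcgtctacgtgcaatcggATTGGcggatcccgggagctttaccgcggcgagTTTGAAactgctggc
Ncapd2 (chr6:125191587-125191736, minus strand): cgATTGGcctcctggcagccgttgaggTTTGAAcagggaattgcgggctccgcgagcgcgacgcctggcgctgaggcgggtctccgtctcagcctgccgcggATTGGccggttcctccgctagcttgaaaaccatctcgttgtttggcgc
In Lin37, CCAAT lay at bases −97 to −93 and, on the other strand, at −78 to −74, and the E2F letters lay on the other strand at −16 to −10, counted from the start. The RefSeq start of Lin37 lies 192 bases inside the gene as GENCODE draws it, so the whole stretch falls within GENCODE's gene. In Mybl2 the E2F letters lay at −13 to −7. The Cdk1 stretch held TTTGAA at −71 to −66 and at −15 to −10, and the Ncapd2 stretch at −123 to −118.

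Of the 9 genes, 6 had an entry in the promoter table (Lin37, Lin52, Lin54, Mybl2, Rbl1 and Rbl2), which is too few for a share over the members. Beside the stretches shown, Lin37 held the CHR letters at −197 to −192, Lin52 the E2F letters at −223 to −217 and at −25 to −19, Lin54 the CHR letters at 41 to 46 after the start, and Rbl2 the CHR letters at −201 to −196. Each motif was searched on both strands, and motifs were counted separately where they overlapped. A list of 66 G2 and mitosis genes known as targets of MuvB with B-MYB and FOXM1 had 57 entries. Within 250 bases before and 50 bases after the start, 45 of the 57 held the CHR letters, or 78.9%, against 19.2% of all 32851 promoters of that length and 13.7% of the 9527 tested genes with an entry. CCAAT was held by 80.7% of the 57, against 37.4% of all promoters and 39.5% of tested genes. The E2F letters were held by 14 of the 57, or 24.6%, near the 21.8% of tested genes that held them. CHR and CCAAT stood together in 70.2% of the 57 promoters, against 7.53% of all promoters and 6.11% of tested genes. The list was written from knowledge of such genes, so these shares describe it and are not independent of the choice. In a list of 53 G1 and S genes, known as targets of E2F and DREAM, 8 of 44 promoters held the CHR letters, or 18.2%. A match describes letters in a window and does not show a bound site.

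Transcript levels of the 9 genes spanned a wide range. Levels are compared as normalized abundance per kb of exon, with exon lengths from GENCODE on GRCm38. In the control Mybl2 was highest, at 857 ± 71.9 per kb (SD, n = 2 libraries), followed by E2f4 at 428 ± 21.8 and Lin37 at 241 ± 36.6. Foxm1 had 112 ± 19.7, Lin54 87.8 ± 2.64, Lin9 50.9 ± 4.05, Rbl1 49.6 ± 4.90 and Lin52 33.5 ± 4.58 per kb. Rbl2 was lowest, at 6.08 ± 7.71 per kb. The transcript of B-MYB stood far above those of the core subunits LIN9, LIN37, LIN52 and LIN54. Rbbp4, the core gene targeted here, had 572 ± 47.7 per kb in the control. Of Rbl1 and Rbl2, the pocket protein genes among the 9, Rbl1 had the higher transcript level per kb in each group's mean. The order of the means was the same with either gene knocked down as in the control, while in the double knockdown Rbl1, at 52.7 ± 7.73 per kb, stood above Lin9, at 47.4 ± 0.46. Lin9 and Rbl1 did not differ beyond their spread in the control, and neither did Foxm1, at 90.4 ± 19.2, and Lin54, at 88.7 ± 3.80, in the Rbbp4 knockdown. The same held for Foxm1, at 78.1 ± 12.7, and Lin54, at 77.6 ± 11.1, in the Rbbp7 knockdown.

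**Figure D1:**
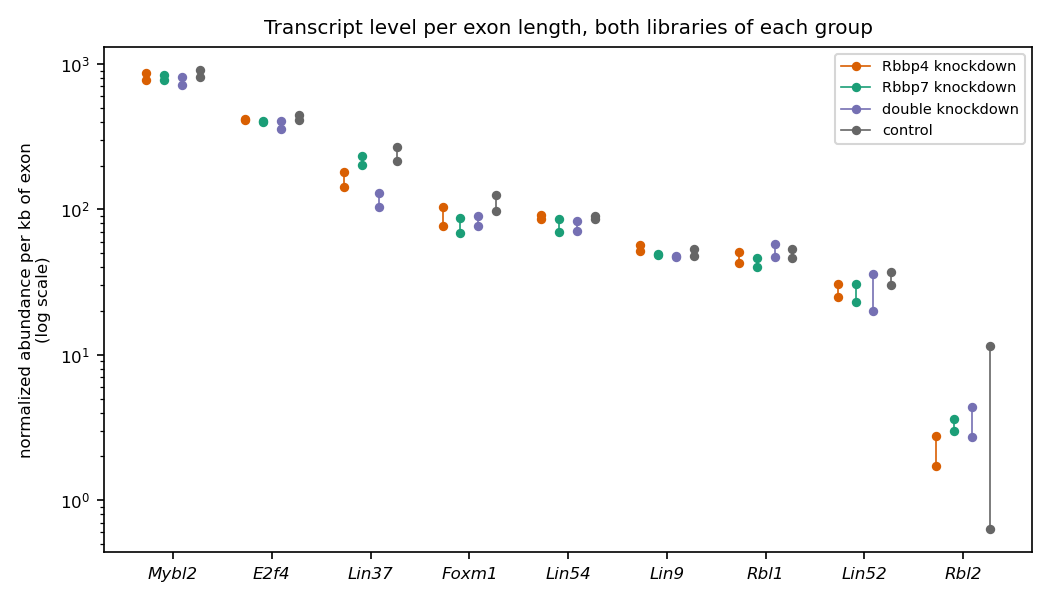
Normalized abundance per kb of exon (log axis) of the 9 genes, with both libraries of each group joined by a line; groups run from the Rbbp4, Rbbp7 and double knockdowns to the control within each gene. Mybl2 is highest in all 4 groups (857 per kb in the control mean), and the control libraries of Rbl2 lie far apart.

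Among the core genes, Lin37 (ENSMUSG00000036845, chr7:30555441-30559838, minus strand) had its lowest values where Rbbp4 was knocked down. Gene positions here and below are those of GENCODE on GRCm38. LIN37 is the subunit needed for repression by DREAM. Its normalized abundance was 252 and 198 with Rbbp4 knocked down, 322 and 279 with Rbbp7 knocked down and 145 and 179 with both knocked down, against 298 and 370 in the control. All 4 libraries with Rbbp4 siRNA lay below all 4 libraries without it, and the double knockdown was lowest. This separation was met by 3.58% of the 12565 genes tested. The means were 225 ± 38.3 with Rbbp4 siRNA alone, 162 ± 24.0 in the double knockdown and 334 ± 50.8 in the control (SD, n = 2), which puts the double knockdown at 48.5% of the control.

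On the log2(value + 1) scale, Lin37 differed from the control by −1.04 ± 0.22 (SE) in the double knockdown, with a 95% confidence interval of −1.54 to −0.54. The unadjusted p was 0.00105, and with limma and Benjamini-Hochberg adjustment over all genes p was 0.0643, so Lin37 was not called. In the Rbbp4 knockdown its log2 change was −0.57 ± 0.22 (limma, adjusted p = 0.836), and in the Rbbp7 knockdown −0.15 ± 0.22 (limma, adjusted p = 0.871). Averaged over both backgrounds, the 4 libraries with Rbbp4 siRNA differed from the 4 without by −0.73 ± 0.16, with an interval of −1.08 to −0.38 (limma, adjusted p = 0.0904). Lin37 passed the threshold in the double knockdown under 2 of 18 alternatives, when genes with a mean below 50 were left out (adjusted p = 0.0499) and after quantile normalization (adjusted p = 0.0496). Over all 18 alternatives the adjusted p ran from 0.0496 to 0.200. Lin37 shares a stretch of 711 bases, 95.4% identical, with Gm8802, a gene outside the table, so reads from the pair may not have been told apart.

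The other core genes showed small differences. LIN9 is the subunit that, with LIN52, holds B-MYB on the complex. Lin9 (ENSMUSG00000058729, chr1:180641150-180690694, plus strand) had 412 and 373 with Rbbp4 knocked down, 354 and 357 with Rbbp7 knocked down and 341 and 346 with both knocked down, against 348 and 389 in the control. The double knockdown was the group with both libraries below both control libraries, by a few units. The double knockdown's log2 change was −0.10 ± 0.16, with an interval of −0.46 to 0.26.

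LIN52 is the subunit whose phosphorylation by DYRK1A lets a pocket protein bind. Lin52 (ENSMUSG00000085793, chr12:84451422-84546145, plus strand) had 77.7 and 95.1 with Rbbp4 knocked down, 95.1 and 72.0 with Rbbp7 knocked down and 112 and 61.9 with both knocked down, against 114 and 94.2 in the control. Every knockdown group overlapped the control, and the double knockdown libraries lay further apart than those of any other group. Its start lies 418 bases from that of Aldh6a1, which runs the other way and had a log2 change of 0.030 ± 0.17 in the double knockdown (limma, adjusted p = 0.954).

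LIN54 carries the DNA-binding domain that reads the CHR element. Lin54 (ENSMUSG00000035310, chr5:100441918-100500639, minus strand) had 532 and 501 with Rbbp4 knocked down, 406 and 497 with Rbbp7 knocked down and 410 and 486 with both knocked down, against 500 and 522 in the control. All 4 libraries with Rbbp7 siRNA lay below all 4 without, a separation met by 3.43% of the genes tested, but Rbbp7 knockdown replicate 2, at 497, nearly reached the lowest library without it, at 500. The average effect of Rbbp7 siRNA was −0.20 ± 0.12, with an interval of −0.46 to 0.067 (limma, adjusted p = 0.532).

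Mybl2 (ENSMUSG00000017861, chr2:163054687-163084688, plus strand) encodes B-MYB, the activator that binds MuvB in S phase. Its normalized abundance was 3594 and 4032 with Rbbp4 knocked down, 3864 and 3599 with Rbbp7 knocked down and 3751 and 3304 with both knocked down, against 3734 and 4205 in the control. The groups overlapped throughout. The double knockdown's log2 change was −0.17 ± 0.12, with an interval of −0.45 to 0.11 (limma, adjusted p = 0.512). Mybl2 shares 742 bases, 99.7% identical, with Gm3320, which is outside the table.

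Foxm1 (ENSMUSG00000001517, chr6:128362967-128376146, plus strand) encodes the forkhead factor that joins B-MYB and MuvB at G2 and mitosis genes. It had 598 and 442 with Rbbp4 knocked down, 398 and 501 with Rbbp7 knocked down and 440 and 517 with both knocked down, against 725 and 564 in the control. The Rbbp7 and double knockdown libraries lay below both control libraries, while 1 Rbbp4 knockdown library lay within the control range. The Rbbp7 knockdown stood at 69.7% of the control, with a log2 change of −0.52 ± 0.21 (unadjusted p = 0.0362, limma adjusted p = 0.495). The double knockdown had −0.42 ± 0.21 (limma, adjusted p = 0.343). Foxm1 starts 56 bases from Rhno1, a gene of the DNA damage response on the opposite strand. Rhno1 had 292 and 321 with Rbbp4 knocked down, 319 and 198 with Rbbp7 knocked down and 247 and 329 with both knocked down, against 127 and 307 in the control, and was not called (limma, adjusted p = 0.884 in the Rbbp4 and 0.525 in the double knockdown).

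Rbl1 (ENSMUSG00000027641, chr2:157145893-157204534, minus strand) encodes p107, the pocket protein of dividing cells. Its normalized abundance was 307 and 257 with Rbbp4 knocked down, 240 and 278 with Rbbp7 knocked down and 349 and 283 with both knocked down, against 318 and 277 in the control. Every group overlapped the control, with a log2 change of 0.083 ± 0.20 in the double knockdown.

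Rbl2 (ENSMUSG00000031666, chr8:91070057-91123844, plus strand) encodes p130, the pocket protein of resting cells. It was low, with 21.0 and 12.9 with Rbbp4 knocked down, 22.7 and 27.2 with Rbbp7 knocked down and 33.1 and 20.5 with both knocked down, against 4.76 and 87.2 in the control. The control libraries held both the lowest and the highest value of the 8, so the log2 changes of the knockdowns against the control had standard errors of 1.06 and no direction could be read. The exons of Rbl2 share 693 bases, 9.17% of their length, with Aktip on the opposite strand. Whether strand was used in counting is not given in the sources used here, so reads of that stretch are uncertain.

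E2f4 (ENSMUSG00000014859, chr8:105297663-105305370, plus strand) encodes the E2F factor of DREAM. It had 1004 and 1019 with Rbbp4 knocked down, 1000 and 972 with Rbbp7 knocked down and 993 and 879 with both knocked down, against 1087 and 1012 in the control. All 4 libraries with Rbbp7 siRNA lay below all 4 without, by a narrow margin, with an average effect of −0.10 ± 0.088 (limma, adjusted p = 0.685). E2f4 and Lin54 were the members separated in this way.

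**Figure D2:**
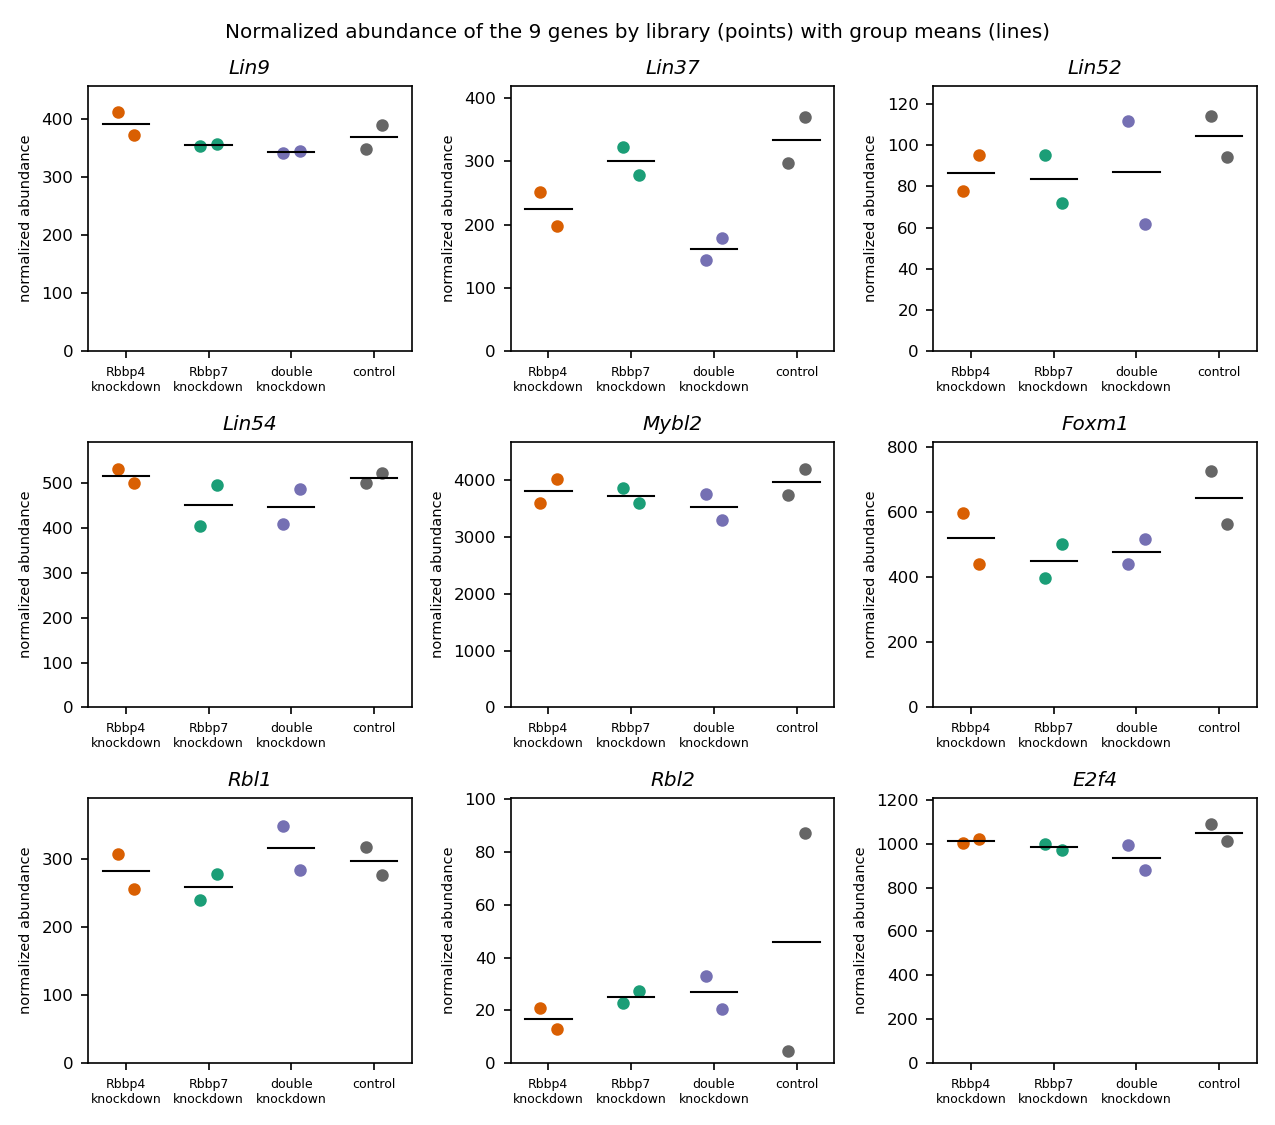
Normalized abundance (y axis, from 0) of each of the 9 genes in both libraries (points) of the Rbbp4, Rbbp7 and double knockdowns and the control, with group means as lines. Lin37 has 145 and 179 in the double knockdown, against 298 and 370 in the control, while Mybl2 overlaps in all 4 groups.

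Of the 9 genes, 0 were called in any of the 6 comparisons by limma with Benjamini-Hochberg adjustment at 0.05. Of all tested genes, 0.0239% were called with Rbbp4 knocked down, 0.0239% with Rbbp7 knocked down and 1.15% in the double knockdown. For the average effect of Rbbp4 siRNA the share was 0.47%, for that of Rbbp7 siRNA 0.0955%, and for the interaction 0.00796%. At an unadjusted p under 0.05 there was 1 member in the Rbbp4 knockdown (Lin37, with 5.86% of all genes), 1 in the Rbbp7 knockdown (Foxm1, with 9.55%) and 1 in the double knockdown (Lin37, with 17.3%). There was 1 for the average effect of Rbbp4 siRNA (Lin37, with 14.2%), and 0 for that of Rbbp7 siRNA (12.7%) and for the interaction (6.49%). A count of 1 of 9 is not far from these shares, so it is not a result about the 9 genes as a set. The comparisons with the control share its libraries and are not independent.

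Most log2 changes of the members were negative, but few of these signs were resolved. Limma's confidence interval lay wholly below no change for Lin37 in the Rbbp4 and double knockdowns and for the average effect of Rbbp4 siRNA. It did so for Foxm1 in the Rbbp7 knockdown. Every other interval of the 9 genes included both signs. The counts below also include Rbl2, whose direction could not be read. They describe signs and are no result about the 9 genes as a set. In the double knockdown 7 of 9 members had a negative log2 change with a median of −0.17, against 50% of all tested genes and a median of −0.00056. In the Rbbp4 knockdown 7 of 9 were negative with a median of −0.079, against 49.1% and 0.0049, and in the Rbbp7 knockdown 8 of 9 with a median of −0.15, against 48.6% and 0.0095. For the averages, 6 of 9 were negative with Rbbp4 siRNA (median −0.070, with 49.8% of all genes negative) and 8 of 9 with Rbbp7 siRNA (median −0.12, with 49.5%). The interaction was negative for 5 of 9, with 51.8% of all genes. Single libraries moved these medians. The double knockdown's was −0.079 and the average with Rbbp7 siRNA −0.057 without double knockdown replicate 2, and the Rbbp7 knockdown's was −0.068 without Rbbp7 knockdown replicate 2. The Rbbp4 knockdown's was −0.13 when either control replicate 1 or Rbbp4 knockdown replicate 1 was left out. The average with Rbbp4 siRNA was −0.00037 without Rbbp4 knockdown replicate 2, −0.021 and −0.11 without double knockdown replicates 2 and 1, and −0.039 and −0.028 without control replicates 1 and 2. Both libraries lay below both control libraries for 5 of 9 members in the double knockdown (Lin9, Lin37, Lin54, Foxm1 and E2f4), for 3 in the Rbbp7 knockdown (Lin54, Foxm1 and E2f4) and for 1 in the Rbbp4 knockdown (Lin37). Over all tested genes this held for 22.2% in the double, 19.7% in the Rbbp7 and 17.4% in the Rbbp4 knockdown. No member had both libraries above both control libraries, which held for 21.9%, 19.9% and 18% of all tested genes in the same order. In bulk RNA, fewer cells of a type and less RNA per cell cannot be told apart, which holds for each level given here.

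The interaction asks whether the change in the double knockdown departs from the sum of the single knockdowns' changes. For Lin37 it was −0.32 ± 0.31, with an interval of −1.03 to 0.38 (limma, adjusted p = 0.875), and for Foxm1 0.41 ± 0.30, with an interval of −0.26 to 1.08 (limma, adjusted p = 0.837). These intervals are wide, and a departure of the size of the single changes was not detectable with 2 libraries a group.

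**Figure D3:**
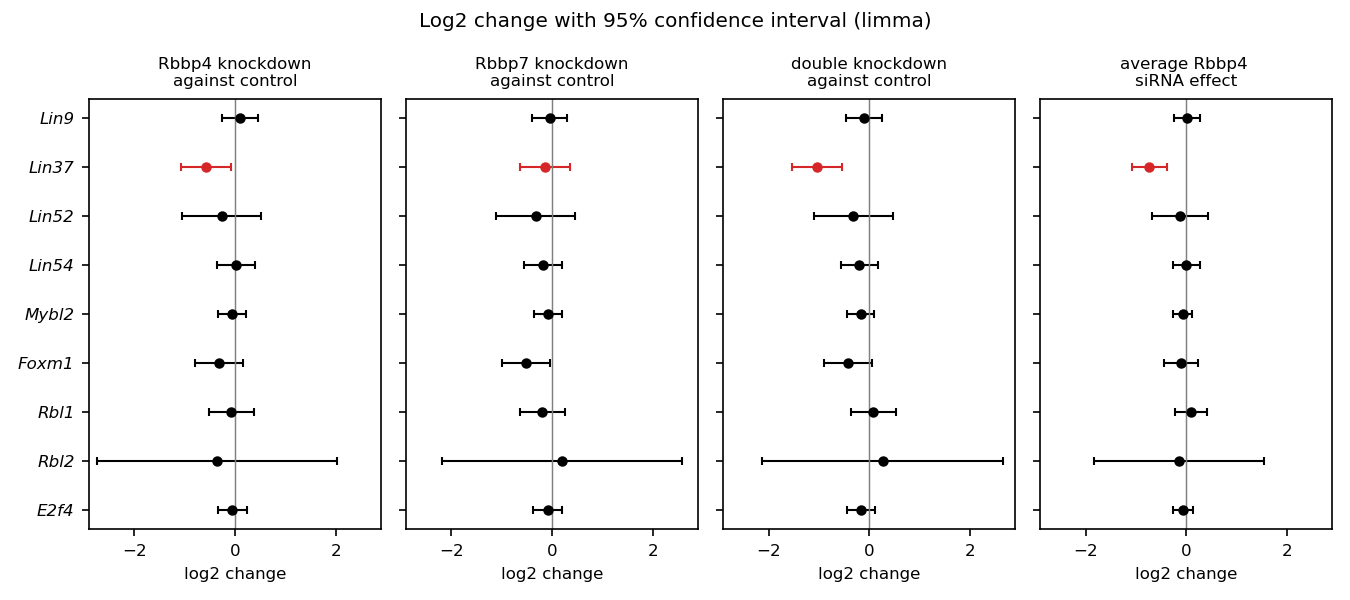
Log2 changes of the 9 genes with 95% confidence intervals from limma (x axis) in the 3 knockdowns against the control and for the average effect of Rbbp4 siRNA; Lin37 is drawn in red in each panel. The Lin37 interval runs from −1.54 to −0.54 in the double knockdown, and the Rbl2 intervals are the widest.

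Among partners and relatives of these factors, 1 gene passed the test. Of 12 genes for other E2F, DP, RB and MYB proteins, 11 were tested and E2f2, an E2F that activates S phase genes, was called in the double knockdown, where 1.15% of all tested genes were called and 0.501% called lower. E2f2 had 283 and 290 with Rbbp4 knocked down, 243 and 224 with Rbbp7 knocked down and 132 and 105 with both knocked down, against 286 and 276 in the control. The Rbbp4 knockdown stood at the control level and the double knockdown far below every other library, with a log2 change of −1.25 ± 0.20 (limma, adjusted p = 0.0268). The call was lost when any 1 of the 8 libraries was left out, with the change then between −1.41 and −1.09. At an unchanged log2 change it was also lost without the intensity trend (adjusted p = 0.0666), with group weights (0.0676) and with only the 2 groups compared (0.140). The interaction of E2f2 was −1.01 ± 0.28 and did not pass (limma, adjusted p = 0.667).

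E2f8, an atypical E2F that represses, had 198 and 198 with Rbbp4 knocked down, 223 and 199 with Rbbp7 knocked down and 134 and 144 with both knocked down, against 227 and 251 in the control. Its log2 change in the double knockdown was −0.78 ± 0.20 (limma, adjusted p = 0.0976). Tfdp1, which encodes the DP1 partner of E2F4, had 280 and 212 with Rbbp4 knocked down, 224 and 210 with Rbbp7 knocked down and 204 and 136 with both knocked down, against 48.2 and 154 in the control. Control replicate 1 was the lowest of the 8, and the log2 changes of 1.48 ± 0.47 in the Rbbp4 knockdown (limma, adjusted p = 0.753) and 1.31 ± 0.47 in the Rbbp7 knockdown (limma, adjusted p = 0.413) did not pass.

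Of 24 kinases, cyclins and inhibitors that act on these complexes, 22 were tested and limma called 0 in each comparison, with 4 lower (8.47% of all tested genes) and 1 higher (8.85%) at an unadjusted p under 0.05 in the double knockdown. Cdkn1a, the CDK inhibitor p21, had 2539 and 2252 with Rbbp4 knocked down, 3781 and 2916 with Rbbp7 knocked down and 4561 and 2884 with both knocked down, against 4284 and 4415 in the control. The Rbbp4 knockdown was lowest, with −0.86 ± 0.21 (limma, adjusted p = 0.628), while the double knockdown libraries lay on either side of the control range. Cdk2, the S phase kinase, had −0.54 ± 0.14 in the double knockdown (limma, adjusted p = 0.101). Cdk1 had 1940 and 2237 with Rbbp4 knocked down, 3233 and 3086 with Rbbp7 knocked down and 2113 and 2308 with both knocked down, against 3212 and 2361 in the control. All 4 libraries with Rbbp4 siRNA lay below all 4 without, with an average effect of −0.46 ± 0.11 (limma, adjusted p = 0.110).

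The G2 and mitosis genes are those the activating forms of the complex are known to drive. Like the members and the other gene lists, this list was chosen with earlier results of these data known. Its counts beside all tested genes, here and below, describe the list and are no independent test. In the double knockdown 56 of 66 had a negative log2 change with a median of −0.28, against 50% of all tested genes and a median of −0.00056. In the Rbbp4 knockdown 49 of 66 were negative with a median of −0.11, against 49.1% and 0.0049 over all genes. In the Rbbp7 knockdown it was 35 of 66 with a median of −0.034, against 48.6% and 0.0095. For the average effect of Rbbp4 siRNA it was 55 of 66 with a median of −0.17, against 49.8% and 0.0017 over all genes, and for that of Rbbp7 siRNA 50 of 66 with a median of −0.090, against 49.5% and 0.0036. The interaction was negative for 49 of 66, with a median of −0.11, against 51.8% and −0.017 over all genes. The Rbbp7 knockdown's median turned positive without its replicate 1 (0.041) or without control replicate 1 (0.029), and was −0.086 without its replicate 2. The Rbbp4 knockdown's median was −0.064 without its replicate 2 and −0.075 without control replicate 1. The interaction's median was −0.19 without control replicate 1, −0.18 without Rbbp7 knockdown replicate 1 and −0.068 without control replicate 2. Most of these 66 genes were not called. Limma called 2 lower (0.501% of all tested genes) and 0 higher in the double knockdown, and 0 in the other 5 comparisons. At an unadjusted p under 0.05, 23 were lower in the double knockdown (8.47% of all tested genes), 9 in the Rbbp4 knockdown (2.85%) and 24 for the average effect of Rbbp4 siRNA (6.35%). In the double knockdown 2 were higher (8.85%). The Rbbp7 knockdown had 5 lower and 2 higher, with 9.55% of all tested genes in either direction. The average effect of Rbbp7 siRNA had 8 lower and 2 higher (12.7% in either direction), and the interaction 3 lower and 1 higher (6.49%).

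The genes called were Cdca3, which promotes mitotic entry, and Ncapd2. Cdca3 had 939 and 1024 with Rbbp4 knocked down, 1018 and 1071 with Rbbp7 knocked down and 794 and 712 with both knocked down, against 1528 and 1369 in the control. Each knockdown lay below the control, and the double knockdown, with −0.94 ± 0.13, was lowest (limma, adjusted p = 0.0178). Ncapd2 had 1272 and 1359 with Rbbp4 knocked down, 1104 and 1339 with Rbbp7 knocked down and 958 and 889 with both knocked down, against 1511 and 1878 in the control. Its log2 change in the double knockdown was −0.87 ± 0.15 (limma, adjusted p = 0.0346). The Ncapd2 call was lost when any 1 of the 8 libraries was left out, with changes between −1.02 and −0.71. Cdca3 was no longer called when control replicate 1 was left out (−0.86, adjusted p = 0.0766), or Rbbp4 knockdown replicate 2 (−0.94, adjusted p = 0.0502), or either double knockdown library (−1.02 and −0.86, adjusted p = 0.0611 and 0.0642). At an unchanged log2 change, both calls were also lost without the intensity trend (adjusted p = 0.0820 for Cdca3 and 0.115 for Ncapd2) and with only the 2 groups compared (0.0963 and 0.129), and that of Ncapd2 with group weights (0.0802).

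Other genes of the list stood near the threshold. Mki67, the proliferation marker, had a log2 change of −0.81 ± 0.16 in the double knockdown (limma, adjusted p = 0.0531), and Ckap2l, a spindle protein gene, −1.01 ± 0.21 (limma, adjusted p = 0.0643). Cenpa, the centromeric histone H3, had 851 and 1009 with Rbbp4 knocked down, 1350 and 1443 with Rbbp7 knocked down and 667 and 974 with both knocked down, against 1226 and 1245 in the control. Its 4 libraries with Rbbp4 siRNA lay below the 4 without, with an average effect of −0.60 ± 0.13 (limma, adjusted p = 0.0904). Such a separation was met by 12 of the 66 genes, among them Cdk1, Aurka, Bub1b, Cdc20, Top2a, Ube2c and Kif20a, against 3.58% of all tested genes, and 0 of the 66 lay above. For Rbbp7 siRNA 4 of the 66 lay below (Birc5, Prc1, Cdca8 and Anln, against 3.43%) and 1 above (Gtse1, against 2.75%).

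Split by the promoter letters, the 45 genes with the CHR letters had a median log2 change of −0.30 in the double knockdown, with 40 negative, and the 12 without had −0.20, with 9 negative. In the Rbbp4 knockdown the median was −0.14 with the letters and −0.046 without, and in the Rbbp7 knockdown 0.011 and −0.036. Among the G1 and S genes the double knockdown's median was −0.055 for the 8 with the letters and −0.13 for the 36 without. The differences between these sets were not tested.

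**Figure D4:**
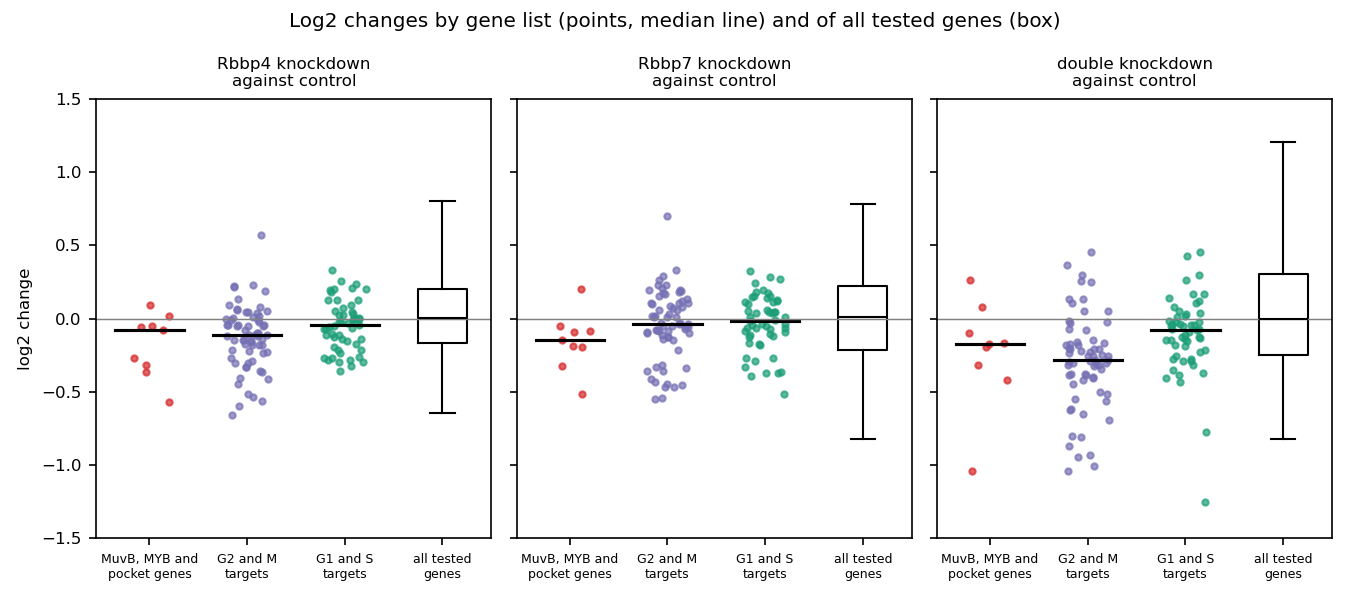
Log2 changes (y axis) of the 9 genes, of 66 G2 and mitosis genes and of 53 G1 and S genes (points, medians as lines) and of all 12565 tested genes (box with quartiles and median, whiskers at the 5th and 95th percentiles), in each knockdown against the control. In the double knockdown the G2 and mitosis median is −0.28, the G1 and S median −0.075 and the median of all genes −0.00056.

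The medians of the G1 and S genes lay closer to 0. In the double knockdown 38 of 53 were negative with a median of −0.075, in the Rbbp4 knockdown 33 with −0.046, and in the Rbbp7 knockdown 28 with −0.016. Of all tested genes 50%, 49.1% and 48.6% were negative, in the same order. For the average effect of Rbbp4 siRNA 35 were negative with a median of −0.053, against 49.8% of all tested genes. For that of Rbbp7 siRNA it was 30 with −0.023, against 49.5%. The interaction was negative for 24, with a median of 0.021, against 51.8%. Without 1 library, the Rbbp4 knockdown's median was 0.016 (Rbbp4 knockdown replicate 1) or −0.13 (Rbbp4 knockdown replicate 2). The Rbbp7 knockdown's was 0.012 (control replicate 1), −0.065 (control replicate 2) or −0.043 (Rbbp7 knockdown replicate 2), and the double knockdown's −0.12 (double knockdown replicate 1). Limma called 1 of the 53 in the double knockdown, near the 1.15% of all tested genes called, and it was E2f2, which is also on the list of relatives. At an unadjusted p under 0.05, 7 were lower (8.47% of all tested genes) and 1 higher (8.85%) in the double knockdown. For the average effect of Rbbp4 siRNA 8 were lower (6.35%) and 1 higher. The Rbbp4 knockdown had 1 lower (2.85%) and 1 higher, and the Rbbp7 knockdown 3 lower and 0 higher (9.55% in either direction). Gins3, a subunit of the replicative helicase, had 613 and 606 with Rbbp4 knocked down, 490 and 486 with Rbbp7 knocked down and 668 and 663 with both knocked down, against 448 and 524 in the control. All 4 libraries with Rbbp4 siRNA lay above all 4 without, with an average effect of 0.39 ± 0.10 (limma, adjusted p = 0.135). For Rbbp4 siRNA 5 of the 53 lay below (Cdc6, Orc6, Rrm2, Cdc25a and E2f8) and Gins3 above, against 3.58% and 3.5% of all tested genes.

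The 9 genes did not share 1 pattern over the 8 libraries. Among their 36 pairs, Pearson's r of log2(value + 1) ran from −0.446, for Lin37 and Rbl1, to 0.823, for Lin52 and E2f4. Within the core, Lin9 and Lin54 had 0.646. Among the 12565 tested genes, those most like Lin37 over the 8 libraries were Sars2, a mitochondrial seryl-tRNA synthetase (r = 0.98), and Zmym1 (r = 0.973). For Mybl2 they were Crmp1 (r = 0.965) and the unnamed ENSMUSG00000097829 (r = 0.937), and for Foxm1 Smc5 (r = 0.958), a subunit of a chromosome maintenance complex, and Slc7a8 (r = 0.951). For Lin54 they were Gcnt1 (r = 0.988) and Nudt19 (r = 0.986), and for Lin9 Srebf2 (r = 0.956) and Rasa1 (r = 0.955). For Lin52 they were Kiss1r (r = 0.966) and Ankrd24 (r = 0.964), for Rbl2 Gm5939 (r = 0.968) and Tcta (r = 0.961), and for E2f4 Gm2541 (r = 0.986) and Gm12543 (r = 0.985). These are the highest of many correlations over 8 libraries that share groups and depth, and describe likeness only.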

How the data were processed

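Messenger RNA of 8 libraries was captured on oligo(dT) beads, per the labels' protocols. The submitters' processing notes list Trimmomatic, HISAT2, featureCounts and DESeq2 as the authors' tools and GRCm38 as the build; their versions and strand use are not given in those notes. What the authors deposited is a signal: a value per Ensembl gene that, per the deposited table's name, they had normalized with DESeq2. Between 37.4% and 66.3% of low values were whole multiples of a step within 0.05, so reads were not recovered, depth is unknown, no counting interval is given and no count model was used. Of 19058 identifiers, 18942 matched a symbol. The table's name for the double group differs from the sample titles by 1 letter and was matched by the genes it names; 0 columns came from other samples.

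Values were analysed as log2(value + 1), which understates changes of low genes. Genes with a mean of at least 10 (12565, the 9 members included; 6493 left out) were fitted over all 8 libraries with 1 mean per group in limma 3.58.1 (R 4.3.3), with an intensity trend (degrees of freedom: 4 residual, 5.18 prior). Two-sided tests were used, with Benjamini-Hochberg adjustment over all genes in each of 6 comparisons and calls at an adjusted p below 0.05. Errors after log2 changes are standard errors, and after means SDs. The fit was tested on simulated data. The members and gene lists were chosen with earlier results of these data known, and the promoter motifs after the tables were read. Named were the members, the targets, genes called or with up to 4 of the smallest p-values from each list and comparison, and the 2 genes most like each member; those of Rbl1 are not reported here. Head-to-head neighbours, separated genes and the single genes named from the cell type and lineage marker lists were named after their values were seen. Near-identical genes were found with blastn 2.17.0 (at least 95% over 100 bases). Promoters are from RefSeq (GRCm38.p6). Alternatives were other pseudocounts (0.5 and 8), filters, scalings, variance models, the 2 groups compared alone, a replicate block and each library left out.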

Additional observations from a re-analysis of the deposited data

How the results depend on the processing

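The members' calls were recomputed under 18 alternatives for the knockdowns and 17 for the averages and the interaction; Rbl2 falls below the filter of a mean of at least 50 and was not tested there. The count of members called stayed at 0 in all of them except the double knockdown, where it was 1 (Lin37) with genes of a mean of at least 50 and 1 with quantile normalization; leaving out 1 library at a time gave 0 to 0. Replicate differences of 2 groups correlated at −0.022 to 0.051 across genes, so no effect shared by libraries of the same replicate number was visible. These correlations cannot show whether such libraries were collected or prepared together. With the replicate number as a block, 0 members were called, Lin37 in the double knockdown had adjusted p = 0.0868 (limma, Benjamini-Hochberg), and the average Rbbp4 siRNA effect had 33 of all genes called, against 59 without it.

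Over all genes, 144 were called in the double knockdown, 196 with the higher filter, 38 with group weights, 10 without the intensity trend, 3 with only the 2 groups compared, and 27 to 99 with 1 library left out. The average Rbbp4 siRNA effect had 5 without the trend and 8 to 61 with 1 library left out. The Rbbp7 knockdown had 3, with 7 under a pseudocount of 8 and 6 under the higher filter. With 1 library left out the ranges were 1 to 38 in the Rbbp7 knockdown, 2 to 36 in the Rbbp4 knockdown, 3 to 36 for the average Rbbp7 siRNA effect and 1 to 21 for the interaction. For the G2 and mitosis list, 2 genes were called in the double knockdown, with 0 to 4 over the alternatives. When a library was left out, its group's other library was assumed to vary like the other groups.

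Several small log2 changes changed sign, and the cause was not tested. Rbl2 had −0.082 under a pseudocount of 8 and −0.0054 under quantile normalization in the Rbbp7 knockdown; with both knocked down it had −0.025 and −0.20. Lin54 had −0.0058 for the average Rbbp4 siRNA effect under TMM scaling, and Mybl2 0.033 for the interaction under quantile normalization. With 1 library left out, Rbl2 ran from −2.34 to 1.60 with Rbbp4 knocked down, −1.77 to 2.17 with Rbbp7 knocked down, −1.70 to 2.24 in the double knockdown, −1.13 to 0.83 for the average Rbbp4 siRNA effect, −0.57 to 1.40 for that of Rbbp7 siRNA and −1.54 to 2.40 for the interaction. In the Rbbp4 knockdown Lin54 ran from −0.029 to 0.058, Mybl2 from −0.14 to 0.028 and Rbl1 from −0.21 to 0.051. In the Rbbp7 knockdown Lin9 ran from −0.13 to 0.030 and Lin37 from −0.30 to 0.0081. In the double knockdown Lin52 ran from −0.74 to 0.11 and Rbl1 from −0.067 to 0.23. For the average Rbbp4 siRNA effect Lin9 ran from −0.020 to 0.061, Lin52 from −0.34 to 0.080 and Lin54 from −0.070 to 0.077. For the average Rbbp7 siRNA effect Lin52 ran from −0.40 to 0.026 and Rbl1 from −0.093 to 0.057. For the interaction Lin52 ran from −0.14 to 0.70, Lin54 from −0.17 to 0.12, Mybl2 from −0.12 to 0.067 and E2f4 from −0.11 to 0.063. The number of libraries, 2 a group, limits the precision of all these values.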
